A study of Mus musculus and Homo sapiens with 22 samples.

Results

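The Zfp genes studied here carry mouse symbols made of Zfp and a number alone, and most of them encode C2H2 zinc finger proteins, in which pairs of cysteines and histidines hold a zinc ion. Members were selected on symbol, on a protein-coding annotation and on the measured values themselves, namely a mean of at least 200 counts over the 6 RNA-seq libraries, and Zfp42 and Zfp352 were left out by the rule. This gave 225 genes out of 56196 genes in the count tables and out of 363 genes with such a symbol, of which 353 had at least 1 count. Zfp647 (mean of 201.0 counts) and Zfp628 (208.3) lay just inside the minimum, and Zfp276 (198.8) and Zfp821 (198.5) lay just outside it.

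RNA was sequenced after poly(A)+ selection from mouse embryonic stem cells (mESCs), either wild type (WT) or with a knockout (KO) of Mettl3, which encodes the enzyme that writes m6A, with 3 replicates each. Both lines came from an earlier study and were grown with serum and LIF, and nothing in the labels says whether the KO line was 1 clone. The m6A sites came from miCLIP2, an antibody crosslinking method that places m6A at single nucleotides, and were predicted by the classifier m6Aboost. They form 1 list for WT mESCs, which the authors made from 3 replicates, and 1 list for a single library of 1 µg of purchased mouse heart RNA.

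A classical zinc finger reads one short stretch of DNA with a helix between its second cysteine and first histidine, and neighbouring fingers are joined by a linker whose consensus is the peptide TGEKP. Many mouse Zfp proteins also carry a KRAB domain, which recruits the corepressor Trim28 and with it Setdb1 and heterochromatin proteins to transposons and imprinted loci. The fingers of such genes are usually encoded by one long last exon. m6A is placed on DRACH motifs (D is A, G or T, R is A or G, H is A, C or T), most often in long exons and near stop codons, and it is known to shorten the life of many transcripts.

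Sites inside fingers of the common 21-residue form were found most often at residues 3 and 20, so windows of such sites are shown first. Each window is 21 nt of GRCm38 on the strand of the gene, with the site in the middle and the 5 nt centred on it in capitals. The first 4 lie at residue 3 of a finger, between the zinc-binding cysteines, where an aspartate codon precedes the second cysteine codon. The windows at residues 3 and 20 were picked among the 5 sites with the highest m6Aboost scores at each residue, after the pattern had been seen.
Zfp568, chr7:30023057-30023077, plus strand, finger 5: gagtgtaaGGACTgtgacaag
Zfp626, chr7:27818955-27818975, plus strand, finger 10: gagtgtaaGGACTgtgggaag
Zfp60, chr7:27749604-27749624, plus strand, finger 15: gagtgtaaGGACTgtggaaag
Zfp13, chr17:23576693-23576713, minus strand, finger 2: acctgcacGGACTgtggcaag

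The next 4 lie at residue 20, on the threonine codon that precedes the last histidine of the finger.
Zfp646, chr7:127878904-127878924, plus strand, finger 2: ccatatgaGGACTcatgctcc
Zfp553, chr7:127235658-127235678, plus strand, finger 2: acatcagcGAACTcacactgg
Zfp707, chr15:75975242-75975262, plus strand, finger 7: acatcagaGAACTcacgggcg
Zfp180, chr7:24105582-24105602, plus strand, finger 6: acatcagaGGACTcacaccgg

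The last 2 are the sites found in a TGEKP linker, both on its lysine codon.
Zfp229, chr17:21746379-21746399, plus strand: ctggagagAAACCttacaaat
Zfp239, chr6:117871388-117871408, plus strand: ccggtgagAAACCtttcaagt
The scores of the residue 3 windows were 0.973, 0.922, 0.922 and 0.838, and those of the residue 20 windows were 0.899, 0.863, 0.806 and 0.786, on a scale from 0.5 to 1. The linker sites scored 0.571 and 0.545. The windows of Zfp568, Zfp626 and Zfp60 share their letters up to and past the motif and differ near the right-hand end.

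The label of the group was checked on the protein each gene encodes (longest coding transcript of GENCODE M21). A C2H2 finger pattern was found in 220 of the 225 members, 2364 fingers in all, with a median of 10 fingers per member and a maximum of 36. The 5 members without the pattern were Zfp185, Zfp330, Zfp365, Zfp839 and Zfp993. A KRAB-like pattern was found in 94 members and a SCAN-like pattern in 6. These are pattern matches, and the KRAB gene Zfp57 was missed by the pattern. The last exon encoded 1904 fingers (80.5%), and in 162 members it encoded every finger. Members lay on 20 chromosomes, most on chromosome 7 (56) and chromosome 17 (27), and 97 of them lay in 12 runs of at least 5 members with gaps of at most 1 Mb.

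The reads counted in genes numbered 22746733 to 27254245 per library, and replicates of a group differed by more than sampling noise. Mettl3 itself was counted 560, 698 and 612 times in WT and 462, 669 and 457 times in KO, which is 26.4 to 28.9 CPM (counts scaled to a common library size with TMM factors) in WT and 16.9 to 22.6 CPM in KO, without overlap. Its log2 fold change was −0.50 with an adjusted p of 0.0134 (0.00281 with the replicate number as a block), and a count over the whole gene does not show which exons were lost. The WT and KO lines also differed in ways that the Mettl3 genotype does not name. Genes of chromosome Y together had 3.35 to 7.51 CPM in WT and 232 to 242 CPM in KO, and genes of chromosome 8 that are no members had a median log2 fold change of −0.44 (61 rose and 281 fell of 817). Of 6 embryonic stem cell markers only Tfcp2l1 changed, and it fell by 0.58 on the log2 scale. With the replicate block Esrrb rose by 0.43 as well (adjusted p = 0.0106 without it and 0.00191 with it). Of 8 feeder fibroblast markers, 3 could be tested. Thy1 rose, Pdgfrb fell and Col1a1 did not pass, and the summed level of the list was 9.45 to 13.2 CPM in WT and 10.6 to 11.8 CPM in KO, with Dcn, Lum and Postn at or near 0 in every library.

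Members were expressed at low levels. Per kilobase of transcript, the WT level had a median of 5.98 CPM per kb (range 0.317 to 159), against 13.7 CPM per kb for the 9143 other protein-coding genes with the same minimum. The highest level belonged to Zfp207, a spindle assembly factor (159 CPM per kb in WT, 128 in KO), followed by Zfp106, an RNA-binding protein (84.5 and 80.4), and Zfp57, which keeps DNA methylation at imprinted loci (75.3 and 33.4). Zfp521 had the lowest WT level (0.317), below Zfp846 (0.623) and Zfp629 (0.784). The WT mean of 30 members was itself under 200 counts, and 14 of those 30 rose in KO, so they owe their membership to the KO libraries. The KO mean of 2 members was under 200 counts, and 1 of them fell.

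Next, it was asked how members changed between KO and WT. Of the 225 members, all of which were tested, 53 (23.6%) rose and 28 (12.4%) fell, with calls made where the quasi-likelihood p of edgeR, adjusted by Benjamini-Hochberg over all genes, was 0.01 or less. Over all 15731 genes tested, 17.1% rose, 12.6% fell and 29.7% changed in either direction. The share that fell was close to the background, and the share that rose was above it, though the minimum mean count let in members through their KO level as given above. A total of 14 members rose and 6 fell at least 2-fold. Of the 15731 genes tested 1681 rose and 759 fell as much, larger shares than among members. Of the 9143 other protein-coding genes with the same minimum 634 rose and 272 fell as much, shares near those of members. In bulk RNA, fewer cells that express a gene and less RNA per cell cannot be told apart.

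The median log2 fold change of members was 0.16, with 138 members (61.3%) above 0, while that of all genes tested was −0.02 and that of the other protein-coding genes with the same minimum was −0.03. Relative to the WT mean of each gene, the median member stood at −0.09, −0.02 and 0.10 on the log2 scale in WT replicates 1 to 3 and at 0.13, 0.12 and 0.21 in KO replicates 1 to 3. The KO libraries were all higher, but WT replicate 3 came close to KO replicate 2. Over all genes, the same medians lay between −0.01 and 0.01. Without WT replicate 1, KO replicate 1 or KO replicate 3 the number of changed members fell from 81 to 52, 46 and 53, and the median stayed above 0 without any single library.

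**Figure D1:**
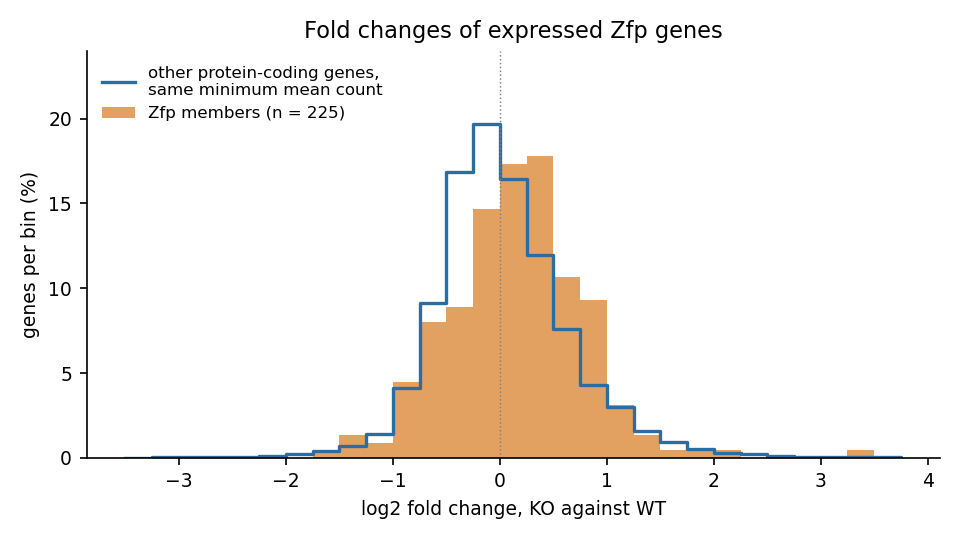
Histogram of the log2 fold change between KO and WT in bins of 0.25, as the percentage of genes per bin (y axis), for the 225 members (orange bars) and the other protein-coding genes with the same minimum mean count (blue line). The members are shifted to the right, with a median of 0.16 against −0.03.

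The members that rose most, among those with ranges of WT and KO that did not overlap, were Zfp521, Zfp629, Zfp62, Zfp105, Zfp623, Zfp65, Zfp628, Zfp93, Zfp189 and Zfp839. Of these, Zfp521, Zfp629, Zfp628, Zfp93 and Zfp189 had a WT mean under 200 counts and met the minimum only through their KO libraries, so their place in this order is a description. The ranges were apart for 139 members (61.8%) and for 56.1% of all genes tested. Zfp521, a large regulator of haematopoietic and neural precursors, had 2.55, 1.56 and 1.80 CPM in the WT libraries and 21.1, 22.2 and 18.2 CPM in the KO libraries. Every KO library was far above every WT library, and the log2 fold change was 3.39 (SE 0.21, adjusted p = 4.13e-06). Zfp629, a protein of 19 fingers, had 4.48, 6.13 and 3.78 CPM in WT and 19.3, 25.9 and 21.4 CPM in KO, a log2 fold change of 2.20 (SE 0.20, adjusted p = 3.65e-05). Zfp62, with 25 fingers in its last exon, had 20.8, 18.7 and 35.5 CPM in WT and 84.1, 90.7 and 102 CPM in KO. WT replicate 3 was the highest WT library and still lay well under the lowest KO library (log2 fold change 1.89, SE 0.21, adjusted p = 0.000107).

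The other 7 rose by 1.08 (Zfp839) to 1.52 (Zfp105) on the log2 scale. Zfp628 (3.82, 4.80 and 5.34 CPM in WT, 9.91, 15.5 and 8.16 CPM in KO) was the least certain, and its adjusted p of 0.00287 rose to 0.0164 without WT replicate 1 and to 0.0105 without KO replicate 2. Zfp189 missed the threshold without WT replicate 1 (adjusted p = 0.0103). Of these 10 genes, 6 had no mESC site (Zfp521, Zfp629, Zfp105, Zfp65, Zfp628 and Zfp189), and Zfp839 had most, with 5. The list comes from WT cells, where Zfp521 had 54, 41 and 38 counts and Zfp189 had 117, 136 and 179. Among members with a mean of 200 to 500 counts, 40.8% had a site. A gene without a listed site is thus not shown to be unmethylated. Zfp521 and Zfp629 held 20 and 19 sites in the heart list.

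The members that fell most were Zfp866, Zfp944, Zfp760, Zfp942, Zfp329, Zfp57, Zfp534, Zfp101, Zfp961 and Zfp868. Zfp866 fell by 1.69 (SE 0.12, adjusted p = 9.59e-06), from 33.1, 34.6 and 37.7 CPM in WT to 10.6, 10.7 and 11.3 CPM in KO. It lies on chromosome 8 with Zfp961 and Zfp868, and 10.7% of its 84-nt sequences, the read length, also occur in transcripts of another gene. Of the 12 members on chromosome 8, none rose and 6 fell, with a median of −0.48, near the −0.44 of the other genes of that chromosome. Without chromosome 8, 53 members rose and 22 fell.

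Zfp57 had 173, 218 and 195 CPM in WT and 77.1, 86.8 and 95.9 CPM in KO. The ranges were far apart, and the log2 fold change was −1.17 (SE 0.13, adjusted p = 7.7e-05). The transcript carried 4 mESC sites, all in coding sequence of its last exon, 1 of them between its first and last finger, and no heart site. Zfp329 fell by 1.22 (SE 0.18, adjusted p = 0.000429), from 18.5, 15.2 and 19.4 CPM to 6.53, 9.11 and 7.09 CPM. Zfp868 missed the threshold without KO replicate 1 (adjusted p = 0.0143) or KO replicate 2 (0.0125).

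**Figure D2:**
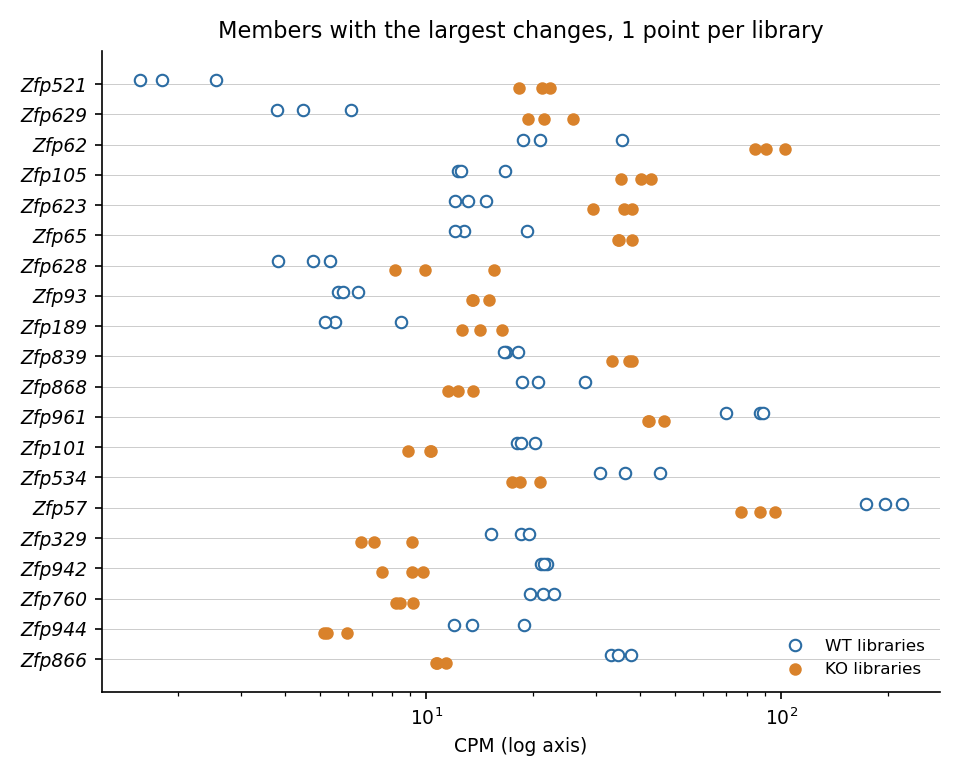
CPM (x axis, log scale) of the 20 members that rose or fell most among changed members with ranges that did not overlap, 10 each way. Each open blue point is a WT library and each filled orange point a KO library (n = 3 each), and in all 20 genes the open and filled points are separate.

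Of the 97 members in the 12 runs, 38 changed, a share near the 36% of all members and above the 29.7% of all genes tested. Calls went both ways in 3 of the runs and 1 way in 9, and with the replicate block they went both ways in 8. A total of 3 runs were picked for description after their values had been seen. Their counts stand beside the 17.1% of all genes tested that rose and the 12.6% that fell. In the run on chromosome 6 (GRCm38, 47835661 to 48623227), 5 of 7 members rose and none fell, with a median of 0.80. Zfp282 rose by 0.99 (SE 0.16), Zfp746 by 0.81 (SE 0.12), Zfp775 by 0.80 (SE 0.19), Zfp777 by 0.80 (SE 0.14) and Zfp398 by 0.69 (SE 0.16), and each of the 7 genes held between 1 and 7 mESC sites, 33 in all. Zfp212 also rose with the replicate block (adjusted p = 0.0117 without it and 0.00225 with it). The 9 other genes tested in this interval had a median of 0.00, with 1 higher and 1 lower.

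In the run on chromosome 4 (145510759 to 147809788), all 11 members had a KRAB-like pattern. Zfp534, Zfp981, Zfp980, Zfp984 and Zfp985 fell by 0.99, 0.81, 0.79, 0.64 and 0.62 on the log2 scale, and none rose. With the replicate block Zfp992 also fell (adjusted p = 0.0134 without it and 5.61e-05 with it) and Zfp982 rose (0.0107 and 0.00224). The 23 other genes tested there had a median of −0.33, with 2 higher and 7 lower. Near-identical copies lie here, and 8 of the 11 members shared over 10% of their 84-nt sequences with another gene (48.3% for Zfp534, 3.32% for Zfp985), so the count of each copy is uncertain. In this run only Zfp978 held a site, with 2.

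In the run on chromosome 17 (21008903 to 23599487), 3 of 10 members fell, Zfp944 by 1.44 (SE 0.20), Zfp760 by 1.3 (SE 0.14) and Zfp942 by 1.29 (SE 0.15), while Zfp51 rose by 0.67 (SE 0.13). All 4 encode KRAB-like proteins and none held a site. With the replicate block Zfp945 also fell (adjusted p = 0.0342 without it and 0.00536 with it) and Zfp229 rose (0.114 and 0.00885). The 26 other genes tested there had a median of −0.17, with 4 higher and 2 lower.

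By pattern match, 17 of the 94 members with a KRAB-like pattern rose (18.1%, near the 17.1% of all genes tested) and 15 fell (16% against 12.6%), with a median of 0.12. Of the 131 members without it 36 rose (27.5%) and 13 fell (9.92%), with a median of 0.20. The pattern missed the KRAB gene Zfp57, so members without it are not shown to lack the domain. Of the 6 SCAN-like members 2 rose and none fell. The difference between these groups was not tested. By number of fingers, the median log2 fold change was −0.09 for the 44 members with 1 to 5 fingers (7 rose, 5 fell), 0.23 for 68 members with 6 to 10 (17 and 6), 0.20 for 69 members with 11 to 15 (14 and 13) and 0.20 for 39 members with 16 or more (14 and 3). The shares that rose in these classes were 15.9%, 25%, 20.3% and 35.9%, and those that fell were 11.4%, 8.82%, 18.8% and 7.69%, beside the same 17.1% and 12.6%. The shares by pattern and by fingers include the 14 members that rose with a WT mean under 200 counts. These met the minimum only through their KO libraries. Zfp521, Zfp629 and Zfp189 are among them, each with 16 or more fingers.

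Members of known function were followed separately. Zfp568, a KRAB protein that silences a placental Igf2 transcript, had 136, 130 and 166 CPM in WT and 260, 280 and 236 CPM in KO, and it rose by 0.84 (SE 0.12, adjusted p = 0.000469). Zfp462, with 33 fingers, had 162, 180 and 164 CPM in WT and 274, 313 and 261 CPM in KO, and it rose by 0.74 (SE 0.11, adjusted p = 0.000497). Zfp451, a SUMO ligase, rose by 0.53 (SE 0.10, adjusted p = 0.00242), but it missed the threshold without KO replicate 1 or 3. Zfp217, a factor known to bind Mettl3, rose by 0.43 (SE 0.10), from 111, 104 and 108 CPM to 149, 151 and 134 CPM. Its adjusted p of 0.00605 did not hold without any one of WT replicates 1 and 2 and KO replicates 1 to 3 (0.0115 to 0.036).

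Several well-known members did not pass. Zfp809, which silences endogenous retroviruses, had 22.6, 27.0 and 25.3 CPM in WT and 18.4, 22.6 and 22.5 CPM in KO, and the ranges overlapped (log2 fold change −0.24, SE 0.13, adjusted p = 0.17). Zfp281, a regulator of pluripotency, had a log2 fold change of −0.22 (SE 0.10, adjusted p = 0.0811). Zfp296 had 0.28 (SE 0.19), Zfp143 −0.11 (SE 0.14), Zfp148 0.15 (SE 0.10), Zfp326 −0.15 (SE 0.13), Zfp598, which marks stalled ribosomes with ubiquitin, −0.11 (SE 0.10), and Zfp622, a ribosome assembly factor, −0.30 (SE 0.10). Zfp423, Zfp638, Zfp710, Zfp91 and Zfp106 did not pass either. Zfp292 stood at 0.37 (SE 0.11, adjusted p = 0.0168) and passed with the replicate number as a block (0.00339), as did Zfp207 (0.0875 without the block and 0.00968 with it). The same held for Zfp647, next to the minimum (0.0113 and 0.000425), and for Zfp553 (0.0377 and 0.00993) and Zfp185 (0.0334 and 0.000257), which are named for their sites or structure. Zfp36 and Zfp711, with means of 158 and 99.5 counts, were under the minimum.

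Corepressor and heterochromatin genes were taken as a list of 22 symbols, of which 21 were found and tested. Whether KRAB proteins work with each of them was not tested. Setdb1, Suv39h2 and Daxx rose, and Hdac1, Uhrf1, Cbx3, Mphosph8 and Dnmt1 fell, with a median of −0.28 over the list. These were 14.3% higher and 23.8% lower, beside 17.1% and 12.6% of all genes tested. Suv39h2, a histone H3 lysine methyltransferase, rose by 1.65 (SE 0.13, adjusted p = 1.5e-05), and Setdb1, the methyltransferase that Trim28 recruits, rose by 0.61 (SE 0.10, adjusted p = 0.00108). Hdac1, a histone deacetylase, fell by 0.95 (SE 0.16, adjusted p = 0.00114). Trim28 itself had 676, 604 and 928 CPM in WT and a mean of 521 ± 21.8 CPM in KO (SD, n = 3), and did not pass (log2 fold change −0.50, adjusted p = 0.0255), but passed with the replicate block (adjusted p = 0.00182). Cbx5 likewise passed only with the block (0.0153 without it and 0.0013 with it).

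The next question was where m6A lies in member transcripts. The mESC list held 638 sites in exons of 136 members (60.4%), against 66.5% of the other protein-coding genes with a site. The share rose with expression in both. With a mean of 200 to 500 counts, 40.8% of 103 members and 39.8% of other genes had a site, in the next class 63.2% of 57 members and 62.5% of other genes, and above that 89.2% of 65 members and 80.6% of other genes. In that top class members carried 6.34 sites on average and other genes 3.70. These means are not scaled to length, and over all classes the median last exon was 2558 nt in members and 1258 nt in other genes. The rule names these site values, so they are given without a test.

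Zfp516 carried most sites, 23, followed by Zfp646 (21), Zfp568 (20), Zfp106, Zfp217, Zfp638, Zfp652 and Zfp740 (15 each) and Zfp41, Zfp462, Zfp507 and Zfp704 (14 each). Zfp516, which drives brown fat genes, had 122, 121 and 123 CPM in WT and 92.5, 104 and 80.5 CPM in KO (log2 fold change −0.40, SE 0.11, adjusted p = 0.0142, or 0.0022 with the replicate block). Zfp740 fell by 0.57 (SE 0.13, adjusted p = 0.00449, between 0.0121 and 0.0247 without WT replicate 1 or any one KO replicate), and Zfp646 rose by 0.83 (SE 0.11, adjusted p = 0.000269). Zfp41 stood at −0.45 (SE 0.14, adjusted p = 0.0253) and passed with the block (0.0071). Zfp652 had 0.17 (SE 0.18) and overlapping ranges. Zfp507 (0.36, SE 0.12) and Zfp704 (0.41, SE 0.15) passed only with the block (adjusted p = 0.0313 and 0.047 without it, 0.00437 and 0.00489 with it). The genes with most sites thus lay on both sides of 0.

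By number of sites, 17 of 89 members without a site rose and 15 fell (median 0.12), 6 of 30 with 1 site rose and 2 fell (0.12), 15 of 56 with 2 to 4 sites rose and 5 fell (0.15), and 15 of 50 with 5 or more sites rose and 6 fell (0.29). The shares that rose were 19.1%, 20%, 26.8% and 30%, and those that fell were 16.9%, 6.67%, 8.93% and 12%. For other protein-coding genes with the same minimum they were 16%, 13.1%, 15.8% and 23.7%, and 17.9%, 19.8%, 14.9% and 8.58%. Of all genes tested, 17.1% rose and 12.6% fell. The member shares include the 14 that rose with a WT mean under 200 counts, which met the minimum only through their KO libraries. Among other protein-coding genes with the same minimum, the medians of these classes were −0.11, −0.13, −0.03 and 0.14. The member medians stood above those of the other genes in each class, and the difference was not tested. Expression level and number of sites moved together, as given above, and the part of either in these medians was not tested.

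Of 625 member sites on the chosen transcripts, 439 (70.2%, Wilson 95% interval 66.5 to 73.7%) lay in coding sequence, 165 (26.4%) in the 3′ UTR and 21 (3.36%) in the 5′ UTR. In other protein-coding genes 50.9% of 22716 sites lay in coding sequence. The last exon held 436 member sites (69.8%, interval 66 to 73.2%) and 68.6% of the sites of other genes. Coding sequence in the last exon took 42.7% of member sites and 21.9% of the sites of other genes. All these intervals cover counting error only, and sites of one gene are not independent.

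The layout of the genes moved with these shares. The last exon held most of the coding sequence in 163 members (72.4%) and in 887 of 9142 other genes (9.7%). Among genes of that layout, 75.5% of member sites and 68.2% of the sites of other genes were coding, and 95% of both lay in the last exon. In members with a KRAB-like pattern, 140 of 146 sites (95.9%) lay in the last exon, and in members without it 296 of 479 (61.8%). When any coding transcript could place a site, the last exon held 77.1% of member sites.

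**Figure D3:**
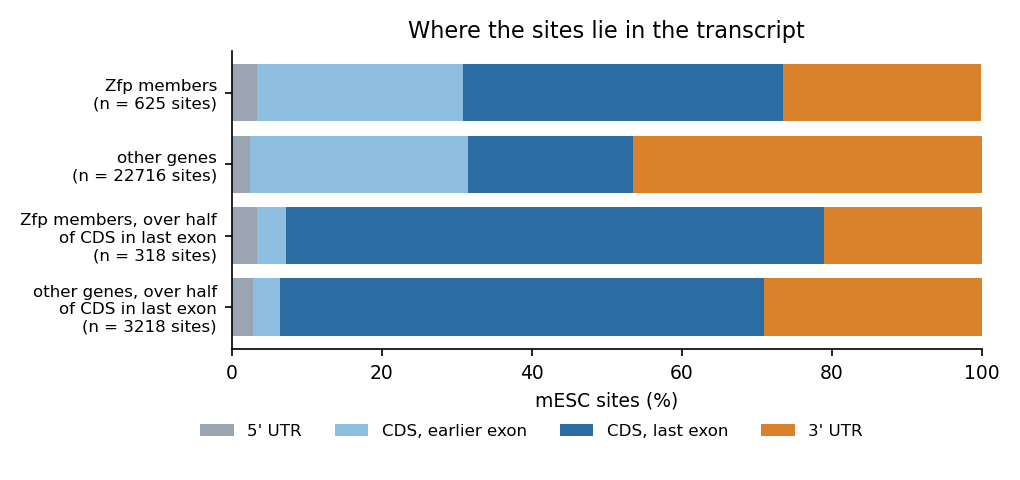
Share of mESC sites (x axis, %) in the 5′ UTR, in coding sequence (CDS) of an earlier exon, in CDS of the last exon and in the 3′ UTR, for members, other protein-coding genes, and the genes of each whose last exon holds most of the CDS. CDS of the last exon holds 42.7% of member sites and 21.9% of those of other genes, and 71.7% against 64.6% among genes of like layout.

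The motifs at member sites had shares near those at sites of other genes. GGACT made up 20.2% of member sites and 22.8% of the sites of other genes, GAACT 14.7% and 14.4%, AGACT 13.5% and 13.2%, and GGACA 11.8% and 11.4%. DRACH motifs held 93.7% of member sites and 92.8% of the sites of other genes. m6Aboost takes the 21 nt around a site and its transcript region as inputs, so motif and region shares are in part set by the predictor.

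Sites were then placed on the fingers. Between the first and the last finger of each protein lay 233 of the 439 coding sites (53.1%, Wilson 95% interval 48.4 to 57.7%), in 79 members, and 53.7% of the 9664 coding DRACH motifs. This span also covers long stretches between scattered fingers in proteins such as Zfp106, Zfp638, Zfp462 and Zfp217. Counting only fingers fewer than 12 residues apart and the residues between them, a choice made after seeing the data, 113 coding sites (25.7%) in 61 members lay in such tandem fingers, which held 35.4% of the coding DRACH motifs. Of the DRACH motifs, 3.01% carried a site in tandem fingers (103 of 3422, interval 2.49 to 3.64%) and 5.01% in the rest of the coding sequence (313 of 6242, interval 4.50 to 5.58%). At like motifs the shares were closer. GGACT carried a site at 26 of 105 places in tandem fingers (24.8%) and at 67 of 321 in the rest (20.9%). GAACT carried one at 23 of 189 (12.2%) and 40 of 318 (12.6%). Of the sites in tandem fingers 106 (93.8%) lay in the last exon, and of the 233 sites between first and last finger 139 (59.7%) did.

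**Figure D4:**
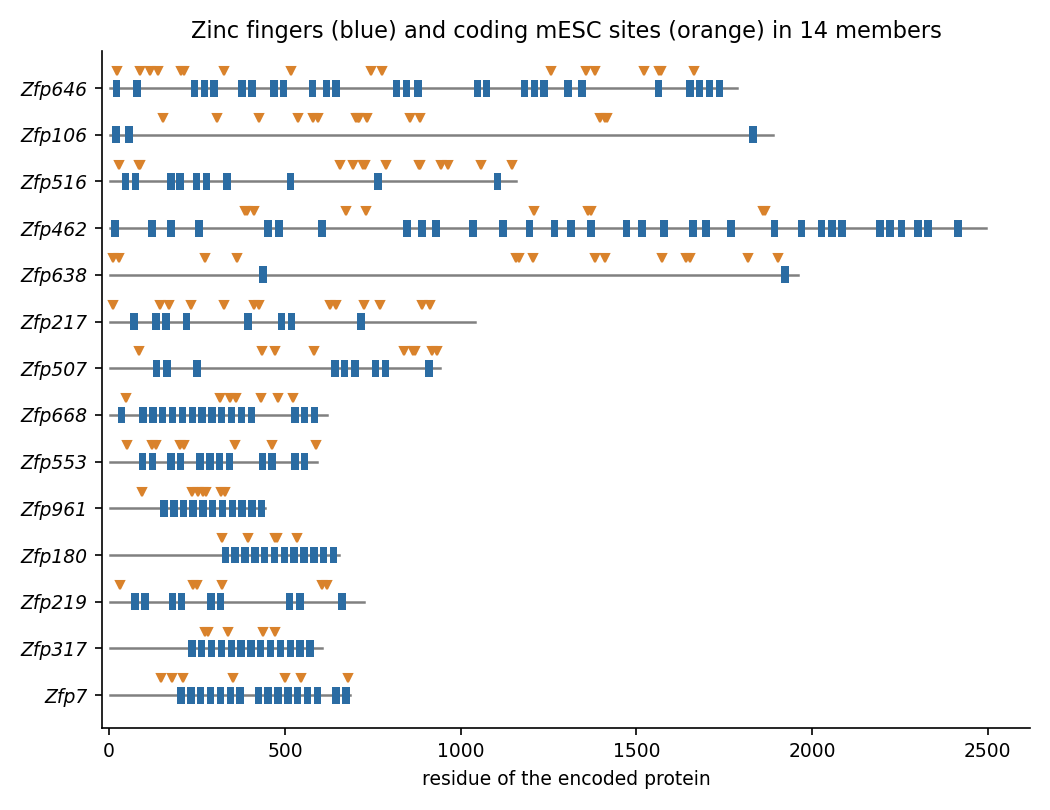
Encoded proteins (x axis, residue number) of the 14 members with most sites between their first and last finger. Blue boxes are C2H2 fingers and orange triangles are coding mESC sites, most of which fall between the scattered fingers in Zfp106 and Zfp638, with others within the tandem fingers of Zfp961, Zfp180 and Zfp317.

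Motifs in the linkers seldom carried a site. The TGEKP linkers of members, 835 in all, held 501 DRACH motifs, each of them AAACC across the lysine and proline codons, and 2 of the 501 carried a site (0.399%, Wilson 95% interval 0.11 to 1.44%), those of Zfp229 and Zfp239 shown above. AAACC also carried no listed site at 539 places elsewhere between first and last finger and at 395 places in the rest of the coding sequence. Outside the linkers, 214 of 4692 DRACH motifs between first and last finger carried a site (4.56%, interval 4 to 5.2%), close to the 4.47% (200 of 4471) outside. Split by exon, with linker motifs counted, the shares differed in opposite directions. In the last exon they were 3.66% between first and last finger (128 of 3494, interval 3.09 to 4.34%) and 5.66% outside (125 of 2209, interval 4.77 to 6.7%). In earlier exons they were 5.18% (88 of 1699) and 3.32% (75 of 2262). For single motifs, GGACT carried a site at 49 of 184 places between first and last finger (26.6%, interval 20.8 to 33.4%) and at 44 of 242 places outside (18.2%, interval 13.8 to 23.5%), and GAACT at 38 of 268 (14.2%) and 25 of 239 (10.5%).

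Within fingers of the common 21-residue form, 55 of 100 sites lay at 2 residues. At residue 3, between the cysteines, 22 of 112 DRACH motifs carried a site (19.6%), and 27 sites in all were found in 21 members, 22 of them on an aspartate codon. GGACT at this residue carried a site at 11 of 21 places (52.4%), AGACT at 7 of 36 (19.4%) and TGACT at 4 of 43 (9.3%). At residue 20, before the last histidine, 27 of 449 motifs carried a site (6.01%), and all 28 sites there, in 20 members, were on a threonine codon. GAACT carried a site at 16 of 117 places, GGACT at 7 of 33 and GAACA at none of 110. At residue 16, 3 of 439 motifs carried a site, and at residue 5 none of 194 did. Residues 7, 10, 11, 13 and 19 had shares of 5.18%, 5.49%, 5.33%, 5% and 6.67%, near that of residue 20, which held the most DRACH motifs. The motifs differ between residues. Those ending in T (DRACT) made up 104 of 112 at residue 3, 201 of 449 at residue 20, 29 of 439 at residue 16 and 5 of 194 at residue 5, and between first and last finger DRACT carried a site at 12.2% of places and the other DRACH motifs at 1.44%. Among DRACT motifs alone, 22 of 104 carried a site at residue 3 and 24 of 201 at residue 20, the latter a share near the 12.2%.

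**Figure D5:**
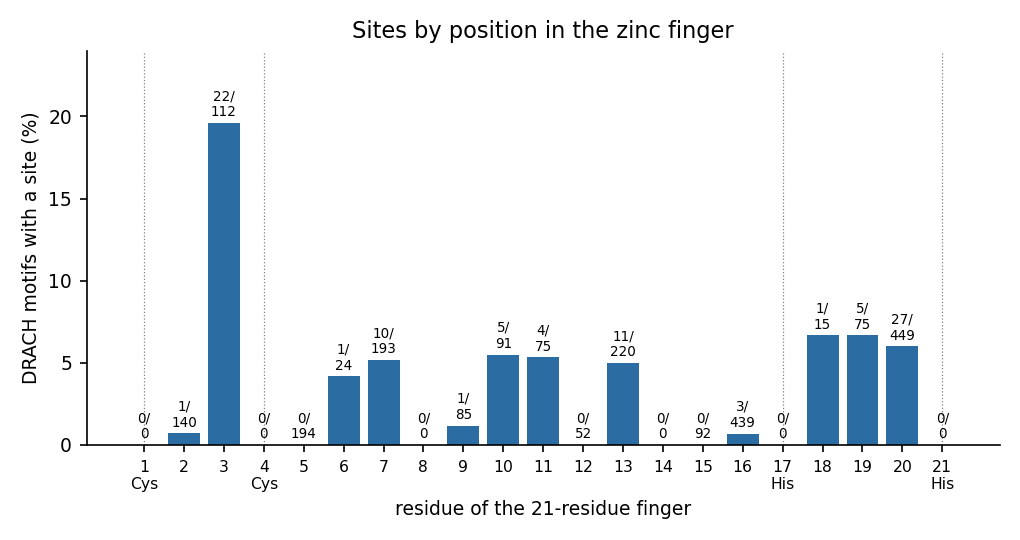
Percentage of DRACH motifs with an mESC site (y axis) at each residue of the 21-residue finger (x axis, with the zinc-binding cysteines and histidines marked), with the number of sites over the number of motifs above each bar. Residue 3 has the highest share, with 22 of 112, and 104 of these 112 motifs are DRACT. At every residue with motifs most have no site, and at residues 5, 12 and 15 none has one.

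Some finger sequences have copies in other genes. The 50 nt after the motif also occurred in transcripts of another gene for 332 DRACH motifs between first and last finger, of which none carried a site, and for 346 motifs outside, of which 2 did. Among motifs with unshared sequence 4.45% (216 of 4857) carried a site between first and last finger and 4.81% (198 of 4115) outside.

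Sites of the named members lay at different places. In Zfp646, which has 27 fingers and 3 exons, 17 coding sites lay between first and last finger and 2 sites in the last exon, since exon 2 holds the fingers. In Zfp961, 6 of 7 coding sites lay among its 11 fingers in the last exon, and the gene fell by 0.91 (SE 0.12). In Zfp740 none of the 15 sites was coding and 12 lay in the last exon. In 4 further members with many sites between first and last finger, the highest-scoring such sites were those of Zfp217 (score 0.918, in finger 8), Zfp462 (0.906), Zfp106 (0.903) and Zfp638 (0.827). The window of Zfp106 holds GGACG, which is not a DRACH motif.
Zfp217, chr2:170114895-170114915, minus strand, residue 724: tgcaccagAGACTtgagcaca
Zfp462, chr4:55009258-55009278, plus strand, residue 411: aggcgtcaGGACTgtctgcag
Zfp106, chr2:120534249-120534269, minus strand, residue 579: acccaaaaGGACGgagaacga
Zfp638, chr6:83984773-83984793, plus strand, residue 1902: ttagatttGGACTttcttgtt

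In the heart list, 1076 sites lay in exons of 155 members. Coding sequence held 74.8% of them and the last exon 74.6%, and 384 positions were in both lists, 60.2% of the mESC sites and 35.7% of the heart sites of members. Both lists held at least 1 site, not always at the same position, in 114 members, 22 members had mESC sites alone, 41 had heart sites alone and 48 had neither. The lists differ in depth and in number of libraries, so a site in 1 list does not show that it was absent in the other tissue.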

How the data were processed

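The deposited values were used as they stand. Counts per gene in the 6 RNA-seq libraries were made by the authors from reads mapped with STAR to GRCm38 and counted per GENCODE M23 gene with HTSeq 0.12.4 on the reverse strand, and are not normalised. Lines that name no gene (36.7 to 42.7% of all lines' reads) were left out. The deposited score of each mESC site is the m6Aboost prediction score, computed by the authors. They called peaks in each of the 3 replicates on its own and kept those present in more than a single replicate. The value deposited with each heart site by the authors is a score of another, unstated kind and was not used.

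KO was tested against WT with edgeR 4.0.16 under R 4.3.3 (low genes removed by filterByExpr, TMM, quasi-likelihood test, Benjamini-Hochberg over 15731 genes, called at 0.01). The common biological coefficient of variation was 0.159. The scripts were tested on simulated data. The labels number the replicates but name no pairing. Deviations of same-numbered WT and KO libraries correlated at 0.122, 0.464 and 0.303 over genes, and those of differently numbered libraries at −0.342 to 0.11. WT replicate 3 with KO replicate 1 (0.11) came close to the replicates numbered 1 (0.122), so the pairing of these is not clear. A fit with the replicate number as a block was therefore run beside the unblocked one. The study calls its mESC replicates biological, but whether each was a separate culture is not given in the sources used here, so p-values measure the spread between these libraries, which may be technical.

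Sites were placed with Python 3.11.15 on the longest coding transcript of GENCODE M21, which had an entry for 98.1% of the genes. Sites in exons of several genes (5 mESC sites of members) were left out. Fingers (a cysteine pair with 2 to 4 residues between, 12 residues, a histidine pair with 3 to 5 residues between) were located in the translated M21 transcript instead of in RefSeq proteins as planned, since no protein table was used here. Named genes were the 10 members that rose most and the 10 that fell most among changed members whose ranges did not overlap, the 10 with most sites (2 genes tied with the last are given too), a list of members of known function, the corepressor list and the genes next to the minimum of 200 counts. The members and lists were chosen with earlier results of these data known. Alternatives are other scalings, filters, thresholds, DESeq2 1.42.0, the block, leaving out each library, other member rules, scores and finger patterns.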

Additional observations from a re-analysis of the deposited data

How the results depend on the processing

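No setting turned the direction of the median member. It was 0.12 to 0.25 when each library was left out in turn, and 0.26 when libraries were scaled by size alone, which moved the median of all genes by the same step to 0.08. The number of changed members (81) was 46 to 95 without 1 library (31 to 65 higher, 13 to 30 lower), 20 when a 2-fold change was also required (14 higher, 6 lower) and 51 (31 higher) among members averaging 500 counts or more. Of the 15731 genes tested, 1681 were higher and 759 lower at least 2-fold. With the replicate block 110 members changed (71 higher, 39 lower), among them all 81, while the share called over all genes rose from 29.7% to 43.5%. The members whose call it changed are given with both values in the report, and it changed no other call of a gene named there. DESeq2 called 92.

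The mESC sites numbered 343 at a score of at least 0.7, where none of the linker motifs carried a site (0%). The last exon held 65.4% of sites in members averaging 500 counts or more and 77.1% with any coding transcript. The heart list gave 1076 sites, 74.6% in the last exon and 74.8% coding. The finger span held 46.7% of coding sites with the stricter finger pattern and 25.7% with tandem fingers only, the latter chosen after seeing the data. Of 44 named members in 528 alternative fits, 497 kept direction and call. The 6 with the opposite sign were all of members that did not pass. They were Zfp106 (0.038), Zfp710 (0.044) and Zfp91 (0.021) with scaling by library size, and Zfp143 and Zfp710 with 1 library left out, where the log2 fold change ran from −0.198 to 0.024 (above 0 without KO replicate 2) and from −0.188 to 0.090 (above 0 without WT replicate 2 or KO replicate 3). The cause was not tested. The site lists give no spread between replicates and no depth.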
